A study of Mus musculus with 9 samples.

Results

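The interleukin-1 (IL-1) family of cytokines and receptors was followed across 3 mouse squamous cell carcinoma (SCC) cell lines that differ in focal adhesion kinase (FAK, encoded by Ptk2), with Il33 at its centre. The 9 genes were chosen by name, as the ligands Il33, Il1a, Il1b and Il18, the antagonist Il1rn and the receptor genes Il1rl1, Il1rap, Il1r1 and Il1r2. Of these, 8 had a row among the 19044 genes of the deposited count table. Il1b had none and was not analysed here. The questions were whether the pattern of Il33 is shared by its relatives, and whether its receptor is expressed in the same cells.

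All cells derive from 1 skin SCC model, made by a chemical carcinogenesis protocol in FVB mice that carried floxed FAK alleles and a tamoxifen-inducible Cre driven by the keratin 14 promoter. FAK was deleted in culture, and retroviral transfer into a FAK-/- clone then restored the wild-type protein (the FAK-WT line) or supplied a kinase-deficient form (the FAK-kd line, called kinase dead in the labels). Both FAK-expressing lines therefore carry the same deletion as the FAK-/- cells. Each line was sequenced as 3 biological replicates, which the sources used here do not trace to separate clones, so the p-values measure the spread between libraries of these lines. The study selected the cells expressing FAK constructs with hygromycin and states no such selection for FAK-/- cells. Comparisons with FAK-/- cells therefore also differ in retroviral transfer and this selection, whose part was not tested. The labels name no further treatment of these lines.

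IL-33 is a cytokine of the IL-1 family that is stored in the nucleus of barrier cells and acts outside the cell as an alarm signal. The study states that SCC cells do not secrete IL-33 and that it works in their nucleus. Outside the cell, IL-33 binds a receptor made of ST2, the product of Il1rl1, and the IL-1 receptor accessory protein, the product of Il1rap. The same accessory protein pairs with IL-1 receptor type 1 (Il1r1) for IL-1 alpha and IL-1 beta, while Il1r2 encodes a decoy receptor and Il1rn an antagonist of type 1. Signals from these receptors pass through MyD88, IRAK kinases and TRAF6 to NF-kB and AP-1 factors. IL-18 uses a receptor pair of its own, encoded by Il18r1 and Il18rap.

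The libraries of 8 samples held between 25304994 and 37264636 counts. FAK-WT replicate 1 held 779755, or 2.31% of the median of the other 8. The limit of detection was set at 3 counts, which equals 3.85 CPM (counts scaled to the same total in every library) in this shallow library and 0.0805 to 0.119 CPM in the others. Apart from depth, FAK-/- replicate 3 and FAK-kd replicate 1 stood apart from the other libraries of their lines, with a chi-square per degree of freedom over genes of at least 50 and at least 16.1, where the remaining pair of each line gave 3.22 and 5.04. Ptk2 itself was at 213, 216 and 216 CPM in FAK-WT cells, 155, 158 and 176 CPM in FAK-kd cells and 21.8, 23.5 and 19.6 CPM in FAK-/- cells, lowest in the line labelled FAK-deficient. The labels give no order between FAK-WT and FAK-kd cells. Ptk2 was higher in FAK-WT than in FAK-kd cells by 0.40 on the log2 scale (edgeR, SE 0.08, adjusted p = 0.00163). The part of this difference in those of other genes was not tested. Of 9 epithelial and keratinocyte markers, 1, the integrin gene Itga6, had at least 10 counts in each of the 8 deep libraries. Krt5, Krt14, Krt18 and Cdh1 never exceeded 8 counts, and Trp63 and Epcam had no row. With Itga6 the epithelial list summed to between 170 and 175 CPM in FAK-WT, 283 and 297 CPM in FAK-/- and 253 and 275 CPM in FAK-kd libraries. Of 6 fibroblast markers, 4 reached that depth, and they did not all move together. The means of Pdgfra, Pdgfrb and Col1a1 were lowest in FAK-WT cells, and that of Col1a2 was lowest in FAK-/- cells. Pdgfrb was at means of 5.50, 25.7 and 33.1 CPM in FAK-WT, FAK-/- and FAK-kd cells, while Col1a2 was at 4.90, 2.50 and 6.11 CPM. The fibroblast list summed to between 20.1 and 24.5 CPM in FAK-WT and between 57.9 and 62.2 CPM in FAK-/- libraries, and FAK-kd libraries reached both below and above the latter range, up to 74.9 CPM. The 4 endothelial markers, of which 3 had a row, summed to between 1.26 and 1.97 CPM in FAK-WT, 0.352 and 0.473 CPM in FAK-/- and 0.150 and 0.351 CPM in FAK-kd libraries. Most of this in FAK-WT cells was Cdh5, at means of 1.49, 0.142 and 0.0195 CPM, the order of the 3 lines also found for Il33. The part of these markers in the differences between lines was not tested. Among markers of other ST2-bearing cells, 4 of 5 mast cell genes had no row and the remaining one, Ms4a2, had at most 2 counts. The 7 leukocyte markers summed to at most 3.36 CPM in any library, most of it Cd68.

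Il33 (ENSMUSG00000024810) occupies 29925114 to 29960718 on chromosome 19 (mm10, plus strand) and has 5 coding transcripts in the GENCODE annotation. RefSeq gives it 2 start sites, and the 250 bases before each (GRCm38.p6) are shown here because its level differed most among the members. Capitals mark every match to the AP-1 motif TGANTCA, the cyclic AMP response element (CRE) TGACGTCA, the TATA motif TATAAA or an NF-kB consensus, read on both strands. The upstream window is chr19:29924863-29925112 and the downstream window chr19:29945540-29945789.

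Il33 upstream start: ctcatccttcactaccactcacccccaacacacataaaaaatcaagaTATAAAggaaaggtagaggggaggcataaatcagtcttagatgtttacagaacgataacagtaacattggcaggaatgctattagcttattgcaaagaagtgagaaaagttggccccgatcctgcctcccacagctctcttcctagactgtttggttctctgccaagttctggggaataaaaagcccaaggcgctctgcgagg

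Il33 downstream start: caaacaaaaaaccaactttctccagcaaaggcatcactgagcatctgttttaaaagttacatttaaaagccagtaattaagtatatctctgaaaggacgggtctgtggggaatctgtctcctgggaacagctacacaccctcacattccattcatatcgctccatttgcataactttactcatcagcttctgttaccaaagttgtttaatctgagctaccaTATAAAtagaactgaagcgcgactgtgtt

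Each window held a TATA match, 198 bases before the upstream start and 24 bases before the downstream start. A TATA match is present in 12.4% of the 32851 promoter windows of the same length in the RefSeq table. Neither Il33 window held AP-1, CRE or NF-kB letters, which are found in 6.75%, 1.55% and 7.25% of all windows. The study's supplement lists such letters in accessible chromatin that it calls an enhancer of Il33. They are shown because AP-1 and CRE are bound by factors whose RNA levels are given further on. The 12 bases listed for Atf2 and Atf7 hold a CRE and those listed for Jun hold an AP-1 motif, again in capitals. The study also treats the CRE as a site for c-Jun, the product of Jun, paired with Atf factors. Its c-Jun binding assay was placed around the CRE.

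Il33 enhancer, listed for Atf2 and Atf7: tccTGACGTCAg

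Il33 enhancer, listed for Jun: tcTGACTCAttg

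Il1rl1 (ENSMUSG00000026069) lies on chromosome 1 of mm10 from 40429570 to 40465415, also on the plus strand. Its neighbours are family genes. Il1r2, Il1r1, Il1rl2, Il1rl1, Il18r1 and Il18rap follow each other on this strand between 40074079 and 40551705, with 136 bases between Il1rl1 and Il18r1. Il1rl1 is known to start from a distal promoter in mast cells and other blood cells and from a proximal one in fibroblasts, and from each it can give membrane-bound and soluble ST2. The gene-level table cannot tell the starts or the 2 forms apart. Which RefSeq start matches which promoter was not determined here. The windows before its 2 RefSeq starts, chr1:40429320-40429569 and chr1:40439379-40439628, are shown for comparison with those of Il33 and held none of the 4 motifs.

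Il1rl1 upstream start: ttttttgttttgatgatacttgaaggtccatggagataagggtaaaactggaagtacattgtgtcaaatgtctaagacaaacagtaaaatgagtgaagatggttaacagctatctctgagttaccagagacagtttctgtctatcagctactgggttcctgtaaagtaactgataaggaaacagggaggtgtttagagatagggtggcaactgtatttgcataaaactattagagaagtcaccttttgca

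Il1rl1 downstream start: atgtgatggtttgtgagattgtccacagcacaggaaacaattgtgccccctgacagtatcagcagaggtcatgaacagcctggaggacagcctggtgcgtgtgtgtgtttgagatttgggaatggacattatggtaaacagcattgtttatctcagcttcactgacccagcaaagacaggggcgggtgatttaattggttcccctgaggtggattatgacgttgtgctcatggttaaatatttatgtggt

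Il33 was highest in FAK-WT cells. Its level was 138, 141 and 145 CPM in FAK-WT replicates 1, 2 and 3, normalized with TMM (trimmed mean of M-values). It was 67.0, 62.7 and 46.3 CPM in FAK-/- cells and 21.6, 37.7 and 37.4 CPM in FAK-kd cells. The 3 cell lines did not overlap, and FAK-kd replicate 1 lay below both other FAK-kd libraries. FAK-WT replicate 1, the shallow library, contributed 110 counts of Il33, with an exact Poisson 95% interval of 114 to 167 CPM that covers counting error only.

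The means ± SD (n = 3) were 141 ± 3.47 CPM in FAK-WT, 58.7 ± 10.9 CPM in FAK-/- and 32.2 ± 9.22 CPM in FAK-kd cells. By edgeR's quasi-likelihood test across all genes, Il33 in FAK-WT cells exceeded that in FAK-/- cells by 1.28 on the log2 scale (SE 0.17, Benjamini–Hochberg adjusted p = 8.8e-05). The excess over FAK-kd cells was 2.14 (SE 0.18, adjusted p = 6.2e-07). FAK-kd cells were below FAK-/- cells by -0.86 on the log2 scale (SE 0.17, adjusted p = 0.00489), which passes the p threshold but not the required size of 1. Thus neighbours in the order FAK-WT, FAK-/-, FAK-kd differed beyond their spread at each step. Without FAK-kd replicate 1 and FAK-WT replicate 1, the log2 fold changes were 1.28, 1.93 and -0.64, and without FAK-/- replicate 3 they were 1.13, 2.14 and -1.01. When the test itself asked for a change beyond 2-fold (glmTreat), the difference from FAK-kd cells passed (adjusted p = 9.8e-05) and that from FAK-/- cells did not (adjusted p = 0.465).

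**Figure D1:**
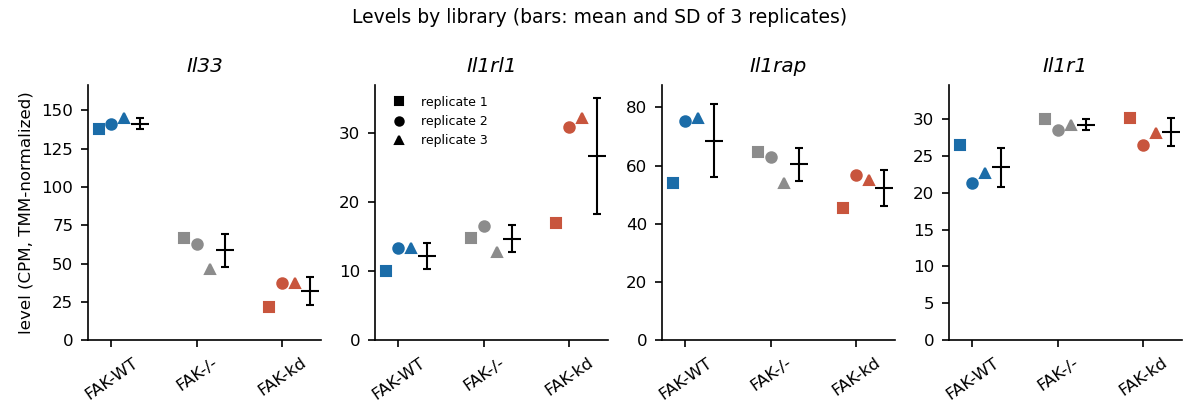
Levels of Il33 and of the 3 receptor genes detected in every library, as TMM-normalized CPM on linear axes from 0, with 1 symbol per library and the mean ± SD of 3 replicates beside it. Il33 falls from 141 CPM in FAK-WT to 32.2 CPM in FAK-kd cells, while Il1rl1 is highest in FAK-kd cells and Il1rap and Il1r1 vary less.

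RNA of both chains of the IL-33 receptor was found in all 3 lines. Il1rl1, which encodes its specific chain ST2, was at 10.1, 13.3 and 13.3 CPM in FAK-WT cells, the lowest of these from 8 counts (95% interval 4.35 to 19.8 CPM). It was at 14.8, 16.6 and 12.8 CPM in FAK-/- cells and at 17.0, 30.9 and 32.2 CPM in FAK-kd cells. FAK-WT and FAK-/- libraries overlapped, and all FAK-kd libraries lay above both, with replicate 1 well below the other 2.

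Il1rl1 differed by -1.03 on the log2 scale between FAK-WT and FAK-kd cells, lower in FAK-WT cells (SE 0.20, adjusted p = 0.00193). This is close to the required size of 1, and the call was lost without FAK-kd replicate 2 (-0.90), without FAK-kd replicate 3 (-0.86) and with glmTreat. FAK-kd cells exceeded FAK-/- cells by 0.86 (SE 0.18, adjusted p = 0.00876), under the required size, and by 1.09 without FAK-kd replicate 1, which passes it. Between FAK-WT and FAK-/- cells the difference was -0.17 with a 95% interval of -0.61 to 0.26 (adjusted p = 0.602). The order of Il1rl1 levels was thus FAK-kd above the other two lines, whose own order was not resolved.

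Il1rap, the shared accessory chain, was the most abundant of the receptor genes among the members. It was at 54.1, 75.3 and 76.4 CPM in FAK-WT cells, 64.7, 62.8 and 54.1 CPM in FAK-/- cells and 45.4, 56.7 and 55.1 CPM in FAK-kd cells. The lowest FAK-WT value is the shallow replicate 1, with 43 counts and an interval of 39.2 to 72.9 CPM. With it FAK-WT overlapped both other lines, and FAK-kd and FAK-/- libraries overlapped as well. FAK-WT cells were above FAK-kd cells by a log2 fold change of 0.47 (SE 0.11, adjusted p = 0.00863), less than the size of 1, and this value was 0.38 without FAK-kd replicate 1 (adjusted p = 0.0543). The other differences were 0.26 for FAK-WT against FAK-/- cells (95% interval 0.02 to 0.50, adjusted p = 0.142) and -0.21 for FAK-kd against FAK-/- cells (-0.44 to 0.02, adjusted p = 0.301).

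Il1r1, the signalling receptor for IL-1 alpha and IL-1 beta, varied least. It was at 26.4, 21.3 and 22.6 CPM in FAK-WT cells, 30.0, 28.5 and 29.1 CPM in FAK-/- cells and 30.1, 26.4 and 28.0 CPM in FAK-kd cells. The mean was lowest in FAK-WT cells, whose highest library, the shallow replicate 1, equalled the lowest FAK-kd library. The difference was -0.39 against FAK-/- cells (SE 0.10, adjusted p = 0.0132) and -0.34 against FAK-kd cells (SE 0.10, adjusted p = 0.028), neither of which reaches the size of 1. Without FAK-kd replicate 1 the latter was -0.27, with an adjusted p of 0.0928. FAK-kd and FAK-/- cells differed by -0.05 (95% interval -0.24 to 0.14, adjusted p = 0.813).

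**Figure D2:**
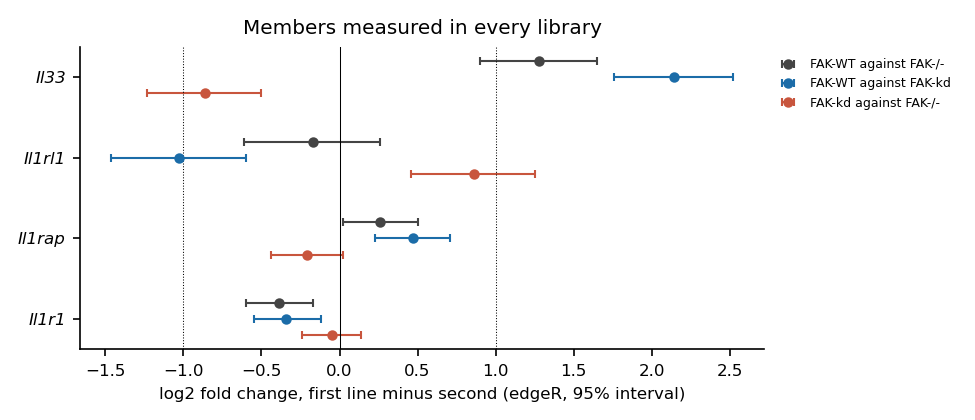
Log2 fold changes of the 4 members detected in every library, with 95% intervals from edgeR's quasi-likelihood fit, for the 3 comparisons of cell lines. Dotted lines mark the required size of 1, which Il33 passes at 1.28 and 2.14 and Il1rl1 at -1.03.

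The other ligands were at or near zero. Il1a, which encodes IL-1 alpha, had 0, 1 and 2 counts in FAK-WT, 2, 0 and 1 in FAK-/- and 2, 2 and 1 in FAK-kd cells. Il18 had 0, 9 and 6 counts in FAK-WT, 11, 0 and 0 in FAK-/- and 21, 11 and 0 in FAK-kd cells. Counts of Il18 thus ranged from 0 to 21 within a single line, and the lines overlapped. The edgeR intervals for Il18 spanned -1.84 to 3.36 for FAK-WT against FAK-/- cells and -3.02 to 1.72 for FAK-WT against FAK-kd cells, and no difference passed. The fitted value depended on FAK-/- replicate 1, the only FAK-/- library with Il18 counts. Without it the fit gave 5.58 for FAK-WT against FAK-/- cells (adjusted p = 0.0778) and 6.22 for FAK-kd against FAK-/- cells (adjusted p = 0.0589), both against libraries at 0 counts, so these depend on the prior count and are no bound.

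The antagonist and the decoy were likewise not detected above the limit of 3 counts. Il1rn had at most 2 counts in any library, and Il1r2 had 1 count in FAK-/- replicate 3 and 0 in the other 8 libraries. In the 8 deep libraries, 3 counts correspond to at most 0.119 CPM. No fold change is given for Il1a, Il1rn or Il1r2, since every library lies at or under that limit.

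Counted together, 1 of the 8 members tested was past the threshold (an adjusted p of at most 0.05 with a change of 1 or more on the log2 scale) for FAK-WT against FAK-/- cells, namely Il33, which was higher. Of all genes tested, 2.32% were called higher and 3.06% lower in that comparison. Against FAK-kd cells 1 member was higher (Il33) and 1 lower (Il1rl1), with 2.37% of all genes called higher and 2.89% lower. Between FAK-kd and FAK-/- cells 0 members passed with edgeR, where 2 had an unadjusted p under 0.05, and 0 passed with DESeq2, while 0.914% of all genes were higher and 1.09% lower. Leaving out FAK-/- replicate 3 brought this count to 1 (Il33, -1.01), and leaving out FAK-kd replicate 1 also to 1 (Il1rl1, 1.09). The 3 comparisons share libraries and are not independent.

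On the adjusted p alone, 2 of 8 members passed for FAK-WT against FAK-/- cells (Il33 higher, Il1r1 lower), beside 18.0% of all genes. For FAK-WT against FAK-kd cells 4 of 8 passed, Il33 and Il1rap as higher and Il1rl1 and Il1r1 as lower, beside 17.7% of all genes. For FAK-kd against FAK-/- cells 2 of 8 passed (Il33 lower, Il1rl1 higher), beside 7.84% of all genes. These counts include the 3 members at the detection limit.

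Levels can be set side by side between genes only per length, here as CPM per kilobase of the longest coding transcript. In FAK-WT cells the order was Il33 at 55.6 ± 1.36, Il1rap at 15.2 ± 2.77, Il1r1 at 4.03 ± 0.460 and Il1rl1 at 2.30 ± 0.349 CPM per kilobase (SD, n = 3). FAK-/- cells had the same order, with Il33 at 23.1 ± 4.28, Il1rap at 13.4 ± 1.25, Il1r1 at 5.01 ± 0.126 and Il1rl1 at 2.79 ± 0.359. In FAK-kd cells neighbours ran together, since Il33 at 12.7 ± 3.62 overlapped Il1rap at 11.6 ± 1.36, and Il1rl1 at 5.03 ± 1.59 overlapped Il1r1 at 4.85 ± 0.320. With the length of all merged exons in place of the longest coding transcript, Il1rap fell to 4.61 and Il33 to 11.2 CPM per kilobase in FAK-kd cells. On that length all FAK-kd libraries lay higher for Il33 than for Il1rap, so the overlap of these genes depends on the length used.

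Among 16336 coding genes with a length, Il33 ranked between the 91.9 and 92.2 percentile of CPM per kilobase in the FAK-WT libraries. It ranked between 76.2 and 82.7 in FAK-/- and between 62.5 and 72.6 in FAK-kd libraries. Il1rl1 lay near the middle, between 45.2 and 46.7 in FAK-WT, 45.8 and 48.1 in FAK-/- and 48.4 and 56.7 in FAK-kd libraries. These ranks are among all coding genes with a row, including genes with few counts. Il18, with 11 counts in FAK-/- replicate 1, ranked at 35.3 there. ST2 RNA was therefore present in every line, with no line at the detection limit, but its rank among well-expressed genes was not determined.

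**Figure D3:**
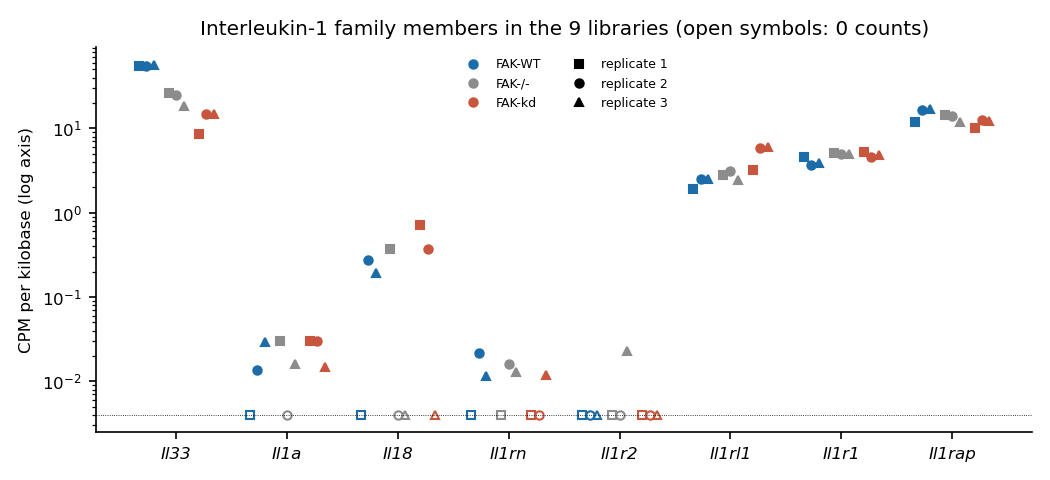
CPM per kilobase of the longest coding transcript for the 8 members with a row, on a log axis, with 1 symbol per library and open symbols on the dotted line for libraries with 0 counts. Il33, Il1rl1, Il1r1 and Il1rap lie at or above 1.90 CPM per kilobase in every library, while Il1a, Il18, Il1rn and Il1r2 lie at or below 0.711.

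The ratio of Il33 to each relative within a library does not depend on how libraries are scaled. For each count of Il1rl1 there were 13.7, 10.6 and 10.9 counts of Il33 in FAK-WT cells, 4.52, 3.77 and 3.61 in FAK-/- cells and 1.27, 1.22 and 1.16 in FAK-kd cells. The lines were far apart in this ratio and the libraries of each line close together. FAK-kd replicate 1 was low in both genes, and the log2 ratio in FAK-kd cells was 0.28 ± 0.06 (SD, n = 3). That library did stand apart in the other ratios. Its log2 ratio of Il33 to Il1r1 was -0.48 against 0.51 and 0.41 in the other FAK-kd libraries, and that to Il1rap was -1.07 against -0.59 and -0.56.

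The mean log2 ratio of Il33 to Il1rl1 differed by 1.57 between FAK-WT and FAK-/- cells, by 3.26 between FAK-WT and FAK-kd cells, and by -1.70 between FAK-kd and FAK-/- cells. Relative to Il1rap the differences were 1.12, 1.80 and -0.68, and relative to Il1r1 1.61, 2.45 and -0.84. Without FAK-kd replicate 1, the difference between FAK-kd and FAK-/- cells was -0.53 relative to Il1r1, -0.52 relative to Il1rap and -1.73 relative to Il1rl1. All 9 of these tests had a two-sided exact permutation p of 0.100, the smallest that 3 libraries against 3 allow, and the Benjamini–Hochberg adjusted value over the 9 is also 0.100. Groups did not overlap in any of the 9, but this design cannot reach 0.05.

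**Figure D4:**
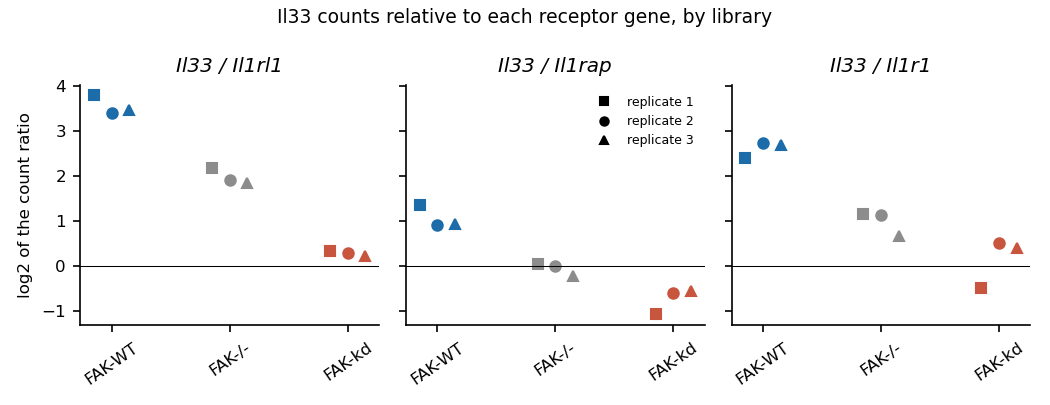
Log2 of the count of Il33 divided by the count of Il1rl1, Il1rap or Il1r1 in the same library, with 1 symbol per library and 0 marking equal counts. The ratio to Il1rl1 falls from 3.55 ± 0.21 in FAK-WT to 0.28 ± 0.06 in FAK-kd cells.

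The other genes of the pathway were examined in 7 lists with 82 genes, of which 74 had a row. The counts below include Ccl5 and Cxcl10, which were chosen because the study names them and were called higher in both FAK-WT comparisons. For FAK-WT against FAK-/- cells 8 of the 74 were higher and 2 lower, beside 2.32% and 3.06% of all genes. For FAK-WT against FAK-kd cells again 8 were higher and 2 lower, beside 2.37% and 2.89%, and for FAK-kd against FAK-/- cells 3 were higher and 2 lower, beside 0.914% and 1.09%. The latter count of 5 fell to 3 without FAK-/- replicate 1, without FAK-/- replicate 2 or without FAK-kd replicate 3. The median fitted log2 fold change over the pathway genes, leaving out those at the limit in both lines, was 0.06, 0.04 and 0.08 in the 3 comparisons, beside 0 for all genes tested.

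Of the other ligands, the IL-36 cytokine gene Il36g was the only one of 5 with a row, at means of 0.196, 0.192 and 0.277 CPM in FAK-WT, FAK-/- and FAK-kd cells, and passed no test. Among 7 other receptor and decoy genes 1 passed. Il1rl2, which encodes the IL-36 receptor, had 0, 34 and 41 counts in FAK-WT, 23, 11 and 18 in FAK-/- and 0, 1 and 3 in FAK-kd cells. It was called higher in FAK-WT than in FAK-kd cells (adjusted p = 0.000148) and lower in FAK-kd than in FAK-/- cells (adjusted p = 0.00222).

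Its neighbour Il18rap, which encodes the accessory chain of the IL-18 receptor, missed the required size but was abundant, and was singled out after its values were seen. It was at 85.6, 96.6 and 91.5 CPM in FAK-WT, 51.4, 52.4 and 48.3 CPM in FAK-/- and 47.3, 63.8 and 62.5 CPM in FAK-kd cells, so that FAK-WT libraries lay above all others. Its partner chain Il18r1 was at means of 0.288, 0.391 and 0.297 CPM. The log2 excess of Il18rap in FAK-WT cells was 0.87 over FAK-/- cells (SE 0.11, adjusted p = 2.6e-05) and 0.68 over FAK-kd cells (SE 0.10, adjusted p = 0.000259). Sigirr, a receptor that dampens IL-1 family signalling and was also picked after its values were seen, was at 18.9, 21.7 and 19.9 CPM in FAK-WT, 17.8, 19.2 and 26.1 CPM in FAK-/- and 8.36, 14.2 and 12.3 CPM in FAK-kd cells.

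The 15 adaptors and kinases that carry the signal, among them Myd88, Irak1, Irak4 and Traf6, held 0 genes past the threshold in each of the 3 comparisons, with edgeR and with DESeq2, while 7, 4 and 4 had an unadjusted p under 0.05 in edgeR. Their medians were -0.05, 0 and 0.04 on the log2 scale. On the adjusted p alone, 6, 4 and 2 of the 15 passed, beside 18.0%, 17.7% and 7.84% of all genes. Myd88, the adaptor shared by the receptors, was at 17.3 ± 5.16, 17.2 ± 1.04 and 17.1 ± 0.474 CPM in FAK-WT, FAK-/- and FAK-kd cells (SD, n = 3).

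Of 14 genes for the inflammasome and for proteases that process or inactivate these ligands, 4 passed as higher for FAK-WT against FAK-/- cells, 3 as higher for FAK-WT against FAK-kd cells and 1 as higher for FAK-kd against FAK-/- cells. Of all genes tested, 2.32%, 2.37% and 0.914% were called higher in these comparisons. The medians of this list were 0.67, 0.07 and 0.19 as fitted. They were 0.13, -0.14 and 0.19 when only the line at the limit was set to 3 counts per library. That substitution can reverse a sign, as for Nlrp1a in FAK-WT against FAK-kd cells (3.76 as fitted, -0.70 substituted). The substituted medians are therefore no bounds. Casp1, the protease that matures IL-1 beta and IL-18, was at 23.9, 25.3 and 28.5 CPM in FAK-WT, 5.09, 5.05 and 5.06 CPM in FAK-/- and 6.75, 8.66 and 8.90 CPM in FAK-kd cells. In FAK-WT cells it exceeded FAK-/- cells by 2.39 (SE 0.13, adjusted p = 4.2e-09) and FAK-kd cells by 1.71 (SE 0.12, adjusted p = 1.2e-07).

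Aim2, a sensor of cytosolic DNA that activates caspase-1, had 5, 149 and 179 counts in FAK-WT cells against 4, 4 and 6 in FAK-/- and 1, 3 and 1 in FAK-kd cells. In FAK-WT cells it exceeded FAK-/- cells by 4.90 (SE 0.38, adjusted p = 2.7e-07). Nlrp1b, another inflammasome sensor, was at means of 1.93, 0.656 and 0.457 CPM in FAK-WT, FAK-/- and FAK-kd cells, and was higher in FAK-WT than in both other lines (log2 fold changes of 1.73 and 2.24, adjusted p = 0.00305 and 0.000424). Casp4, an inflammatory caspase, had the lowest level in FAK-/- cells at 0.629 CPM, against 3.15 in FAK-WT and 2.46 in FAK-kd cells. Pycard, an inflammasome gene of the same list, had 0, 2 and 2 counts in FAK-WT, 0, 2 and 0 in FAK-/- and 3, 1 and 3 in FAK-kd cells. Nlrp3, also in the list, had at most 1 count in any library. Of the caspase-1 substrates among the members, Il18 was near zero and Il1b was not analysed. Whether an inflammasome was active in any line was not tested.

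Of 26 genes known to be induced by IL-1 receptor and NF-kB signalling, 22 had a row, and their calls went both ways. In FAK-WT cells 2 were higher and 2 lower against FAK-/- cells, beside 2.32% and 3.06% of all genes. The same split of 2 and 2 was found against FAK-kd cells, beside 2.37% and 2.89% of all genes. The higher ones were the monocyte chemokine genes Ccl2, at means of 9.64, 2.31 and 2.62 CPM in FAK-WT, FAK-/- and FAK-kd cells, and Ccl7, at 4.19, 0.472 and 1.04 CPM. Ccl2 was higher in FAK-WT cells by 2.21 against FAK-/- (SE 0.26, adjusted p = 1.6e-05) and by 2.03 against FAK-kd cells (SE 0.25, adjusted p = 3.3e-05).

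The lower ones were Birc3, an inhibitor of apoptosis, and Bcl3, an atypical inhibitor of NF-kB. Birc3 had 0, 5 and 4 counts in FAK-WT, 63, 29 and 53 in FAK-/- and 125, 152 and 189 in FAK-kd cells. Bcl3 had 0, 3 and 1 counts in FAK-WT, 17, 14 and 24 in FAK-/- and 37, 40 and 48 in FAK-kd cells. Birc3 was lower in FAK-WT cells by -3.65 against FAK-/- (SE 0.40, adjusted p = 8.6e-06) and by -5.18 against FAK-kd cells (SE 0.39, adjusted p = 1.7e-07), and for Bcl3 both calls also passed (adjusted p = 0.000371 and 2.3e-05). Between FAK-kd and FAK-/- cells, Birc3 (1.54, SE 0.25, adjusted p = 0.00114) and Ccl7 (1.12, SE 0.33, adjusted p = 0.0487) were higher, and Mmp9 was lower from 0.532 to 0.0995 CPM (adjusted p = 0.0294). The FAK-kd mean of Mmp9 had an SD of 0.0967 CPM and lay near the limit of 3 counts. DESeq2 called 1 of the 22 in this comparison, where edgeR called 3, beside 0.914% of all genes higher and 1.09% lower in edgeR. Beside 18.0%, 17.7% and 7.84% of all genes, 6, 6 and 4 of the 22 passed on the adjusted p alone in the 3 comparisons. They included, for FAK-WT against FAK-/- cells, Ptgs2, the inducible cyclooxygenase, at means of 277, 161 and 210 CPM in FAK-WT, FAK-/- and FAK-kd cells (0.78, SE 0.08, adjusted p = 3.2e-06), and Tnfaip3, an inhibitor of NF-kB, at 5.22, 2.52 and 3.05 CPM (0.94, SE 0.21, adjusted p = 0.00478). Nfkbia and Nfkb1, targets and components of the NF-kB pathway, passed in no comparison, and Nfkb1 was at means of 186, 188 and 180 CPM in FAK-WT, FAK-/- and FAK-kd cells.

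Ccl5 and Cxcl10, chemokine genes that the study places downstream of nuclear IL-33, were chosen because the study names them, so their direction is not independent evidence. Ccl5 was at 1.26, 3.51 and 3.40 CPM in FAK-WT, 0.809, 0.513 and 0.480 CPM in FAK-/- and 0.420, 0.749 and 0.644 CPM in FAK-kd cells. Cxcl10 was at 2.52, 2.34 and 2.71 CPM in FAK-WT, 0.0899, 0.197 and 0.192 CPM in FAK-/- and 0.0899, 0.569 and 0.293 CPM in FAK-kd cells. FAK-WT replicates 2 and 3 lay above all FAK-/- and FAK-kd libraries for both genes. FAK-WT replicate 1 held 1 count of Ccl5 and 2 counts of Cxcl10, under the limit of 3, and cannot be ranked. Both passed as higher in FAK-WT cells, Ccl5 by 2.42 in each comparison (SE 0.35 and 0.34, adjusted p = 0.000133 and 0.00012) and Cxcl10 by 3.97 and 2.98 (SE 0.53 and 0.48, adjusted p = 6.6e-05 and 0.000374). Unlike Il33, Ccl5 gave a log2 fold change of 0 (SE 0.32, adjusted p = 1) between FAK-kd and FAK-/- cells, and Cxcl10 one of 1.00 (SE 0.56, adjusted p = 0.352).

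The 13 bZIP factors that can bind CRE or AP-1 letters like those shown for the Il33 enhancer held 0 genes past the threshold in all 3 comparisons, with edgeR and with DESeq2, while 5, 4 and 7 had an unadjusted p under 0.05 in edgeR. They had medians of -0.16, -0.07 and -0.17. On the adjusted p alone, 4, 2 and 4 of 13 passed, beside 18.0%, 17.7% and 7.84% of all genes, and against FAK-/- cells all 4 were lower in FAK-WT cells. Jun was at 295 ± 1.61 CPM in FAK-WT, 460 ± 90.9 CPM in FAK-/- and 362 ± 20.3 CPM in FAK-kd cells (SD, n = 3). The FAK-/- libraries were at 413, 402 and 564 CPM, the highest being replicate 3, which stood apart. Jun had a log2 fold change of -0.64 for FAK-WT against FAK-/- cells (SE 0.11, adjusted p = 0.000554). Atf7 was at 105 ± 6.08, 117 ± 3.61 and 150 ± 9.18 CPM, and Atf2 at 77.2 ± 0.894, 74.1 ± 7.77 and 80.9 ± 2.55 CPM. The means of Jun and Atf2 stood in other orders than those of Il33, and the means of Atf7 in the reverse order. The study's evidence on c-Jun, the product of Jun, is of other kinds. It reports that Jun knockdown lowered Il33 RNA and that c-Jun bound the enhancer less in FAK-kd cells. After a FAK inhibitor, it reports less c-Jun protein and less phosphorylated c-Jun, which it links to transcriptional activity. Its chromatin data also show open sites at the Il33 enhancer and promoter in FAK-WT cells. Neither site was found open in FAK-kd cells. FAK-/- cells kept only a weaker enhancer signal, which was not called in every replicate. The RNA levels given here do not address these results.

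**Figure D5:**
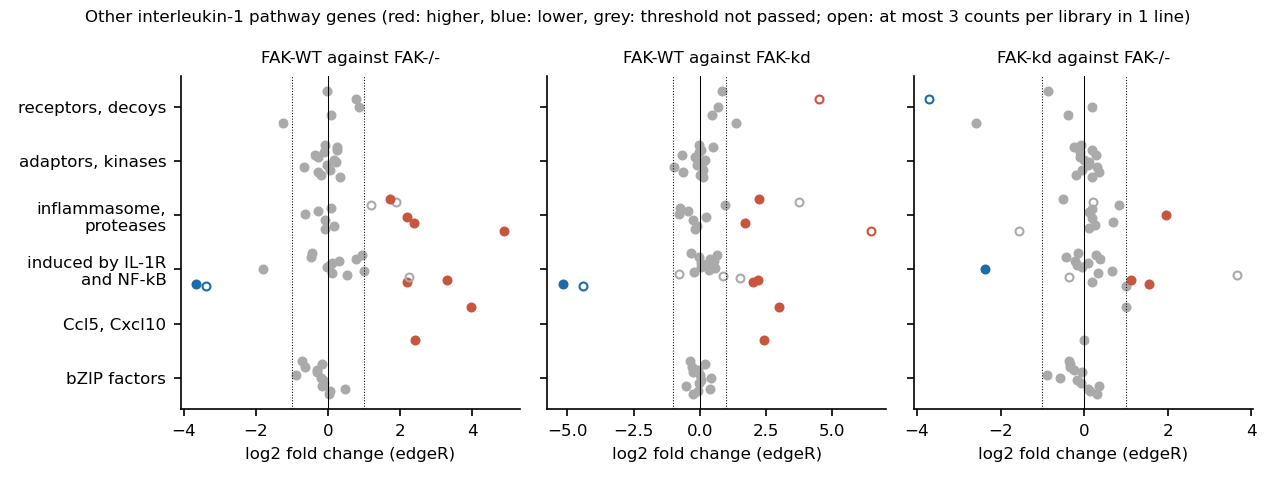
Log2 fold changes of the pathway genes above the count limit in at least 1 of the 2 lines compared, grouped by list, with red for higher, blue for lower, grey for genes that did not pass and open symbols for genes with at most 3 counts per library in 1 line. Adaptors and kinases and bZIP factors hold no coloured point, and the inflammasome list has 4, 3 and 1 red points in the 3 comparisons.

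Among 9923 genes with a mean of at least 100 counts, the 5 whose log2 CPM followed Il33 most closely over the 9 libraries were Zfp239 (Pearson r = 0.995), Tnfrsf22 (0.986), Gm14124 (0.981), Tollip (0.976) and Snrnp70 (0.974). The 9 libraries form 3 lines of 3 and are not independent points, so these values are a description with no test. Tnfrsf22, a decoy receptor for the death ligand TRAIL, was at means of 118, 74.2 and 55.6 CPM in FAK-WT, FAK-/- and FAK-kd cells. Tollip, which dampens IL-1 receptor signalling and is in the list of adaptors, was at 105, 87.1 and 73.5 CPM. By rank correlation the 5 nearest genes were Plod2, Gm14124, Clpb, Tfpi and Tmed8, and 1 gene, Gm14124, was in both sets.

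Each receptor gene had other neighbours. Il1rl1 was most like Rictor (r = 0.994), Rbpj-ps3 (0.965) and Lss (0.965), Il1rap most like Efl1 (0.973), Isg20l2 (0.953) and Sgms2 (0.951), and Il1r1 most like Thoc3 (0.985), Ggh (0.958) and Gcnt4 (0.957). Rictor, a subunit of the kinase complex mTORC2, was at 52.6, 55.4 and 67.7 CPM in FAK-WT, FAK-/- and FAK-kd cells, and Lss, an enzyme of cholesterol synthesis, at 145, 175 and 216 CPM. No gene appeared among the nearest of more than 1 member.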

How the data were processed

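Polyadenylated RNA was sequenced as paired ends from 9 libraries. The authors pseudoaligned reads with kallisto 0.43.1 and summarized them to genes with tximport, and the deposited values are expected counts (estimated counts, whole numbers), not scaled to library size, with 0 rows at zero in every library. The transcriptome release is not given in the sources used here. Symbols matched 18856 of 19044 identifiers. Positions and lengths come from GENCODE and promoter sequences from RefSeq, both on the mouse build named in the processing notes.

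Counts were tested with edgeR 4.0.16 in R 4.3.3 (TMM, estimateDisp, glmQLFit, glmQLFTest) on all genes in 1 fit of 9 libraries, with cell line as the only factor. Genes passed at a Benjamini–Hochberg adjusted p of at most 0.05 with a change of 1 or more on the log2 scale. Standard errors were taken from the quasi-likelihood F statistic. CPM use TMM. Log2 CPM for likeness used a prior count of 2. The floor was 3 counts per library. The fit was tested on simulated data.

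Members, lists, tests and naming rules were chosen with earlier results of these data known. All members are named. Of each list, genes past the threshold in at least 1 comparison are named, at most the 6 largest, and for other genes named the choice followed their values. Alternatives were DESeq2 1.42.0, its size factors in edgeR, library size, filterByExpr, the compared groups alone, a replicate block, no size minimum, glmTreat, and each library left out. The labels give no batch.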

Additional observations from a re-analysis of the deposited data

Results flagged for a closer look

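Il33 and Il1rl1 are the members whose differences from FAK-/- cells pointed opposite ways in the FAK-WT and FAK-kd lines, with the direct comparison of both lines past the threshold. For Il33 the log2 fold change from FAK-/- cells was 1.28 in FAK-WT and -0.86 in FAK-kd cells, and the difference between them was 2.14 (edgeR, adjusted p = 6.2e-07). FAK-WT libraries were higher in 3 of 3 and FAK-kd libraries lower in 3 of 3 than every FAK-/- library. For Il1rl1 the values were -0.17 in FAK-WT and 0.86 in FAK-kd cells, with a difference of -1.03 (adjusted p = 0.00193), and the FAK-WT libraries overlapped those of FAK-/- cells. Both effects share the FAK-/- libraries. The rule for outlying samples was not applied, since each group has 3 samples.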

How the results depend on the processing

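Without the size minimum, calls among members numbered 2, 4 and 2 for FAK-WT against FAK-/-, FAK-WT against FAK-kd and FAK-kd against FAK-/- cells (1, 2 and 0 with it), and calls among pathway genes 24, 23 and 16 (10, 10 and 5 with it). With glmTreat, members called were 0 and 1 in the first and second comparison, and pathway genes called in FAK-kd against FAK-/- cells were 1. That pathway count was 3 with DESeq2 and 3 with the compared groups fitted alone. With FAK-WT replicate 1 and FAK-kd replicate 1 both left out, an alternative chosen after seeing the data, 1 member (Il1rl1) was called in FAK-kd against FAK-/- cells. Leaving out each library in turn gave 1 to 2 members for FAK-WT against FAK-kd cells, and 0 to 1 members and 3 to 6 pathway genes for FAK-kd against FAK-/- cells. Il18 changed sign for FAK-WT against FAK-kd cells (-0.65), to 0.33 with both libraries left out, and it ranged from -1.22 to 0.31 over single libraries left out. Neither value passed, and the cause was not tested. Il33 kept its direction in all 18 alternatives of each comparison, from 1.13 to 1.39, from 1.93 to 2.28 and from -1.01 to -0.64.

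Replicate numbers were not taken as pairs. Deviations of same-numbered libraries correlated at a mean of -0.00689 over 9 pairs, and those of other libraries at 0.00328 over 18 pairs. With a replicate block no member changed its call, and Il18 for FAK-WT against FAK-kd cells was 0.70.

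FAK-WT replicate 1, with 2.31% of the usual depth, limits every FAK-WT value. Most epithelial markers were near zero, Itga6 excepted, and marker sums differed between lines. Gene-level counts cannot separate forms of ST2 or the Il33 starts. Counting intervals cover counting error only, and RNA levels say nothing of protein.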
